A study of Homo sapiens with 6 samples.

Results

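The enzymes of serine synthesis and of the folate one-carbon pathway were followed in the established human line HK-2, derived from proximal tubule epithelium of the kidney, with and without overexpression of *PPM1K*. The members are the 9 genes PHGDH, PSAT1, PSPH, SHMT1, SHMT2, MTHFD1, MTHFD2, MTHFD1L and ALDH1L2, each found by its symbol in 1 row of the count and FPKM tables, of 31369 genes in all. All 9 passed the filter on low counts, as did 15878 genes of the whole table. RNA was sequenced in a control group (NC, 3 samples, genotype WT) and an overexpression group (OE, 3 samples, genotype PPM1K overexpress). The sample titles instead name shControl and shPPM1K, while the paper describes a *PPM1K* plasmid introduced with Lipofectamine, and the genotype was used here. All 6 samples carry the label day 10 and the treatment label chronic kidney disease, which both groups share. What the NC cells were transfected with is not given in the sources used here, and although the paper speaks of biological replicates, it does not say whether they were separate cultures. The p-values measure the spread between these samples, which may then be technical.

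Cells build serine from the glycolytic intermediate 3-phosphoglycerate in a short chain of reactions, in which PHGDH oxidises the substrate, PSAT1 transfers an amino group from glutamate and PSPH removes the phosphate. Serine then gives a one-carbon unit to tetrahydrofolate, a step catalysed by SHMT2 in mitochondria and by SHMT1 in the cytosol. In mitochondria MTHFD2 oxidises this unit, MTHFD1L releases it as formate and ALDH1L2 oxidises it to carbon dioxide with the formation of NADPH, while in the cytosol MTHFD1 takes formate back into folates for purine, thymidylate and methionine synthesis. The kidney is known as an organ that forms serine and releases it to the blood, and several of the enzymes of this pathway are known targets of the transcription factor ATF4. *PPM1K* encodes the mitochondrial phosphatase that activates the branched-chain keto acid dehydrogenase complex.

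The transgene checks the labels. The counts of *PPM1K* were 37, 19 and 53 in the NC samples, in the order of their replicate numbers, and 3294, 3531 and 2919 in the OE samples. Total counts lay between 34635770 and 39850802 per sample, and the members had between 377 and 25453 counts in a sample, so counting error is small for each of them. NC replicate 2 stood apart with a count in 26478 genes, against 22094 to 22913 in the other samples, and without it the member counts by direction given below were the same. In the paper's table of read positions, this library also had the largest shares of intronic, intergenic and antisense reads. Whether these reads account for its further genes was not tested. Of 13 proximal tubule markers only CDH16 and PAX8 had a mean FPKM of at least 1 (read pairs scaled to gene length and library size), and LRP2, the gene of the endocytic receptor megalin, had 1 count in NC replicate 2 and 0 in the other samples. Of 5 epithelial markers, keratins 8, 18 and 19 and EPCAM were above that level. CDH1 was below it, with an FPKM of 0.28 to 0.34 in NC and 0.10 to 0.21 in OE (log2 fold change −1.09). The summed FPKM of the 13 proximal tubule markers was 29.6 to 31.6 in NC and 34.4 to 37.3 in OE. Most of this sum was PAX8, with 26.4 to 28.8 in NC and 32.5 to 35.1 in OE. CDH16 was lower in OE, with 1.80 to 2.06 in NC and 1.08 to 1.19 in OE. At an adjusted p under 0.05, 2 of the 8 tested were higher and 3 lower. The summed FPKM of 5 epithelial markers was 745 to 837 in NC and 626 to 679 in OE, with 4 of 5 lower by this threshold. Of all tested genes 24.9% were higher and 23.7% lower. The summed FPKM of 5 fibroblast markers was 2.94 to 3.10 in NC and 1.10 to 1.15 in OE. That of 4 endothelial markers was 0.56 to 0.71 and 0.78 to 0.90, and that of 4 leukocyte markers 0.19 to 0.28 and 0.04 to 0.15. The part of these differences in the results below was not tested.

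The genes of serine synthesis and of the mitochondrial folate arm rose together in the OE group. Of the 2 cytosolic genes MTHFD1 rose slightly and SHMT1 fell. At an adjusted p under 0.05, 8 of the 9 genes were higher in OE and 1 was lower, where 24.9% of all tested genes were higher and 23.7% lower. With the fold change threshold of the study, above 2 or below 0.5, 4 genes were called higher, namely PHGDH, ALDH1L2, PSAT1 and SHMT2, and 0 lower. Among all tested genes 1.73% were called higher and 3.79% lower by the same rule. The median log2 fold change was 0.91 over the 9 genes and −0.00 over all tested genes. In CPM, the counts scaled to library size after TMM, the OE samples all lay above the NC samples for 8 of the genes and all below for 1, against 28.2% and 27.1% of all tested genes. In these bulk samples, a changed share of cells and a changed amount of RNA per cell cannot be told apart. The adjusted p of a single gene is that of the quasi-likelihood test of edgeR, corrected after Benjamini and Hochberg over the 15878 tested genes.

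PHGDH, the first and committed enzyme of serine synthesis, rose most among the members. Its CPM in replicates 1, 2 and 3 was 209, 197 and 204 for NC and 599.9, 644 and 562 for OE. The groups were far apart, with the lowest OE sample well above the highest NC sample. The rise in OE was 1.57 as a log2 fold change (standard error 0.06, adjusted p = 4.9e-15), a fold change of 2.96 with a 95% interval from 2.73 to 3.21. By size of rise PHGDH ranked 64 among the 15878 tested genes. The gene (ENSG00000092621.13) lies on the plus strand of chromosome 1 from 119648411 to 119744218 on GRCh38 and overlaps no other gene of GENCODE release 44.

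PSAT1, the aminotransferase of the next step, rose by nearly as much. It had a CPM of 19.8, 20.4 and 20.7 in the NC replicates and of 52.8, 50.6 and 49.2 in the OE replicates, and replicates of a group differed little. The rise was 1.33 on the log2 scale (standard error 0.06, adjusted p = 7.9e-13). PSPH, the phosphatase that ends the chain, rose less. Its CPM was 18.0, 17.8 and 18.5 in NC and 33.9, 32.3 and 32.6 in OE, and its log2 fold change, 0.87 (standard error 0.07, adjusted p = 2.3e-09), did not reach the fold change threshold. PSAT1 (ENSG00000135069.14, chromosome 9, 78297125 to 78330093, plus strand) and PSPH (ENSG00000146733.14, chromosome 7, 56011051 to 56051604, minus strand) overlap no other annotated gene. Pseudogenes named after the members were found in 6 rows, PSPHP1 and PSAT1P3 among them, and none had more than 3 counts in a sample.

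**Figure D1:**
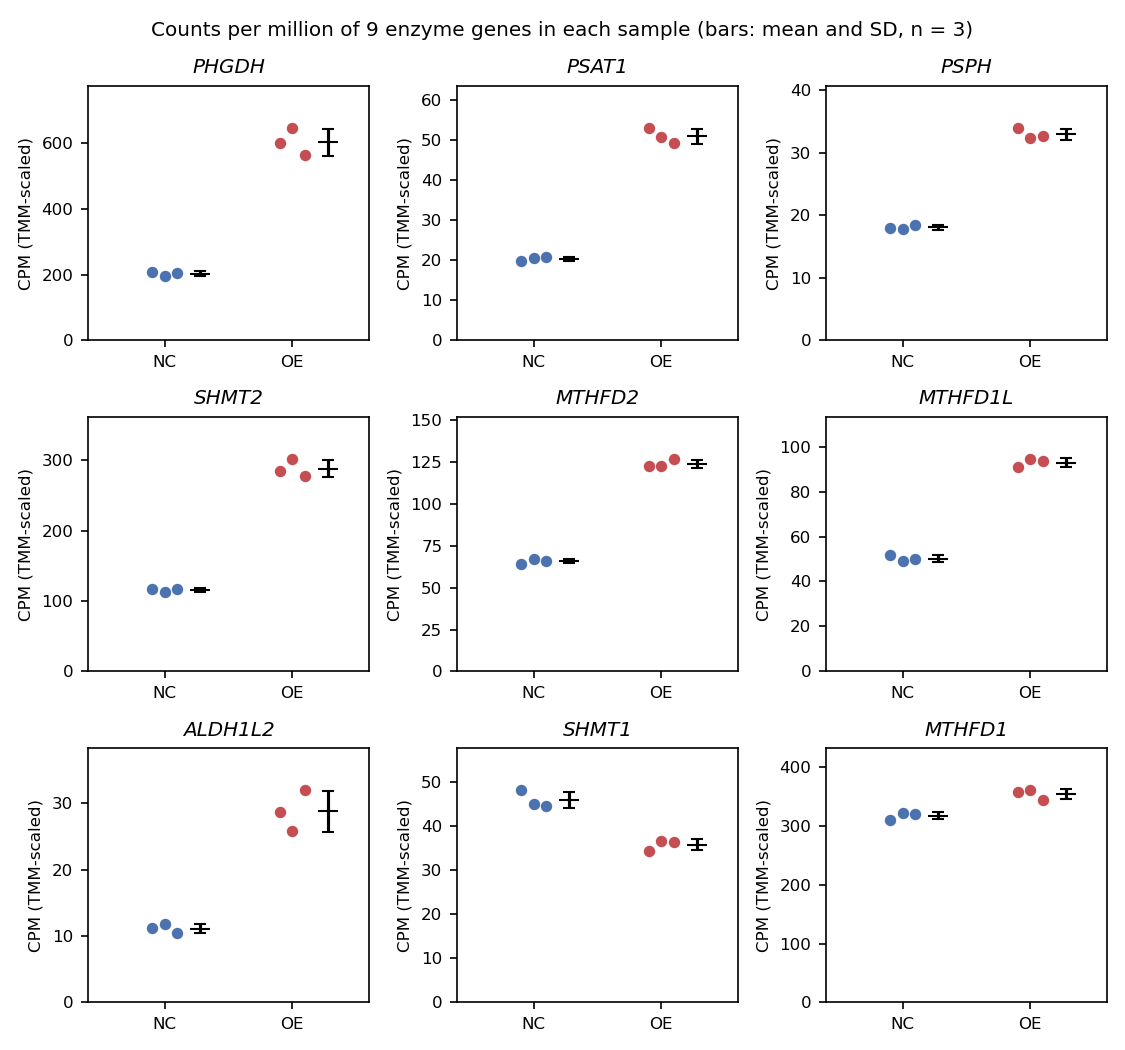
CPM (TMM-scaled, axes from 0) of the 9 enzyme genes in each of 3 NC and 3 OE samples, with the mean and SD beside the points. The OE points lie above the NC points in 8 panels and below them for SHMT1, and the gap for MTHFD1 is small.

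In the mitochondrial folate arm all 4 genes were higher in OE. SHMT2, which moves the one-carbon unit from serine to tetrahydrofolate, had a CPM of 118, 113 and 118 in NC and of 286, 302 and 278 in OE. On the log2 scale the rise was 1.31 (standard error 0.05, adjusted p = 1.7e-14), close to that of PSAT1. ALDH1L2, the folate dehydrogenase that forms NADPH, had 11.1, 11.8 and 10.5 CPM in NC and 28.7, 25.8 and 32.0 CPM in OE. It had the fewest counts of the members and the widest spread in OE, with a coefficient of variation of 10.8%, and its log2 fold change of 1.37 had a standard error of 0.09 (adjusted p = 6.2e-11).

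The other two genes of this arm rose by slightly less than the fold change threshold. MTHFD2, the dehydrogenase and cyclohydrolase that is typically high in embryonic and proliferating cells, had a CPM of 64.4, 67.0 and 66.2 in NC and of 123, 123 and 127 in OE (log2 fold change 0.91, standard error 0.05, adjusted p = 4.2e-12). MTHFD1L, which releases formate for export to the cytosol, had 51.8, 49.1 and 49.8 CPM in NC and 90.7, 94.3 and 93.6 CPM in OE (log2 fold change 0.89, standard error 0.05, adjusted p = 1.5e-11). For both genes the replicates lay close together and the groups did not overlap.

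In the cytosolic arm 1 gene fell and 1 rose slightly. SHMT1, the cytosolic counterpart of SHMT2, was the member that fell. Its CPM was 48.2, 45.2 and 44.7 in NC and 34.4, 36.8 and 36.5 in OE, which is −0.36 on the log2 scale (standard error 0.06, adjusted p = 5.8e-05), or a decrease of 22.0%. MTHFD1, the cytosolic enzyme with 3 activities, had 310.2, 322 and 319.9 CPM in NC and 358, 360.1 and 344 CPM in OE. The rise was 0.16 on the log2 scale (standard error 0.05, adjusted p = 0.0097), and 66.2% of all tested genes had a lower value. When any 1 of the 6 samples was dropped, MTHFD1 stayed between 0.15 and 0.18, with an adjusted p of at most 0.045, and SHMT1 between −0.38 and −0.32. A fit with a replicate block left MTHFD1 at 0.16 with an adjusted p of 0.052.

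The 7 genes of serine synthesis and the mitochondrial arm can be sorted by size of change. PHGDH, ALDH1L2, PSAT1 and SHMT2 had fold changes from 2.49 to 2.96, and MTHFD2, MTHFD1L and PSPH from 1.82 to 1.88. Both sets held genes of both pathways. The sets were read off these same fold changes and were not tested, and on log2(FPKM + 1) ALDH1L2, with 0.88, lay near MTHFD1L and MTHFD2.

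**Figure D2:**
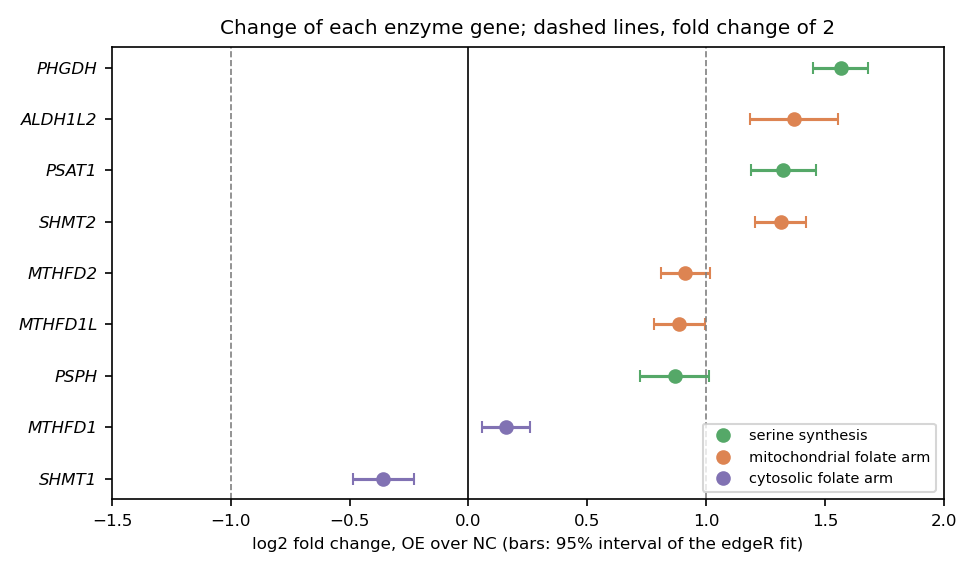
Log2 fold change of OE over NC for each enzyme gene, with bars for the 95% interval of the edgeR fit and dashed lines at a fold change of 2. PHGDH, ALDH1L2, PSAT1 and SHMT2 lie above the line at 1, MTHFD2, MTHFD1L and PSPH just below it, MTHFD1 at 0.16 and SHMT1 at −0.36.

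Several members share their position with a neighbour, and the sources used here do not give the strand setting of the counting. SHMT2 (ENSG00000182199.11, chromosome 12, 57229573 to 57234935, plus strand) overlaps NDUFA4L2 on the other strand, which had 36 to 56 counts in NC and 191 to 218 in OE, against 3970 to 4228 and 10083 to 11924 for SHMT2. SHMT1 (ENSG00000176974.20, chromosome 17, 18327860 to 18363563, minus strand) overlaps SMCR8 on the other strand, which had 1606 to 1695 counts in NC and 2171 to 2204 in OE, so the neighbour was higher where SHMT1 was lower. ALDH1L2 (ENSG00000136010.14, chromosome 12, 105019784 to 105107643, minus strand) overlaps WASHC4, with 1719 to 1735 counts in NC and 1403 to 1698 in OE, and C12orf45 (NOPCHAP1 in GENCODE), with 764 to 851 in NC and 1116 to 1353 in OE, both on the other strand. ALDH1L2 itself had 377 to 415 and 1019 to 1161 counts, so C12orf45 was higher in OE like the member and WASHC4 lower, and how far shared reads enter its value was not tested. MTHFD2 (ENSG00000065911.13, chromosome 2, 74186172 to 74217565), MTHFD1L (ENSG00000120254.16, chromosome 6, 150865679 to 151101887) and MTHFD1 (ENSG00000100714.17, chromosome 14, 64388031 to 64463457), all on the plus strand, overlap further genes. Of these, RP11-287D1.3 over MTHFD2 had 758 to 827 counts in NC and 684 to 849 in OE, ZBTB25 over MTHFD1 had 180 to 202 in every sample, and the others in the count table had at most 12.

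Levels were compared between the genes per length. In the deposited FPKM, NC cells had MTHFD1 first with 23.9 ± 0.260 (SD, n = 3) and SHMT2 with 23.3 ± 0.836, and the ranges of this pair overlapped. PHGDH followed with 20.4 ± 0.894, then MTHFD1L with 9.46 ± 0.374, PSAT1 with 8.48 ± 0.163, PSPH with 6.02 ± 0.168, SHMT1 with 5.83 ± 0.298, MTHFD2 with 5.31 ± 0.0513 and ALDH1L2 with 1.08 ± 0.0557. PSPH and SHMT1 also overlapped, and the other neighbours did not. In OE cells PHGDH was first with an FPKM of 61.2 ± 3.94 (SD, n = 3), overlapping SHMT2 with 58.6 ± 2.44. MTHFD1 followed with 27.1 ± 0.463, PSAT1 had 21.5 ± 0.468, MTHFD1L 17.7 ± 0.584, PSPH 11.1 ± 0.179, MTHFD2 10.1 ± 0.316, SHMT1 4.60 ± 0.228 and ALDH1L2 2.84 ± 0.329, with no other overlap between neighbours. SHMT1 thus stood above MTHFD2 in NC and below it in OE.

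This order depends on the length used. For the 7 members whose annotation version is that of GENCODE release 44, the length implied by counts and FPKM was 1.07 times the length of all annotated exons merged, which is 9187 bases for PHGDH, where the MANE Select transcript has 1866 bases. For SHMT1 and MTHFD1, whose versions differ, it was 1.11 and 0.753 times. Per kilobase of the MANE Select transcript, in CPM without TMM, PHGDH was first in NC too, with 109 ± 2.66 (SD, n = 3), before MTHFD1 with 101 ± 2.59 and SHMT2 with 54.0 ± 0.764. In OE the values were 321 ± 19.7, 112 ± 1.62 and 133 ± 5.06, and SHMT1, at rank 4 in NC with 18.3 ± 0.750, was at rank 8 with 14.1 ± 0.654. By both lengths PHGDH, SHMT2 and MTHFD1 were the first 3 and ALDH1L2 the last in both groups. The fold changes of single genes do not depend on this length.

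**Figure D3:**
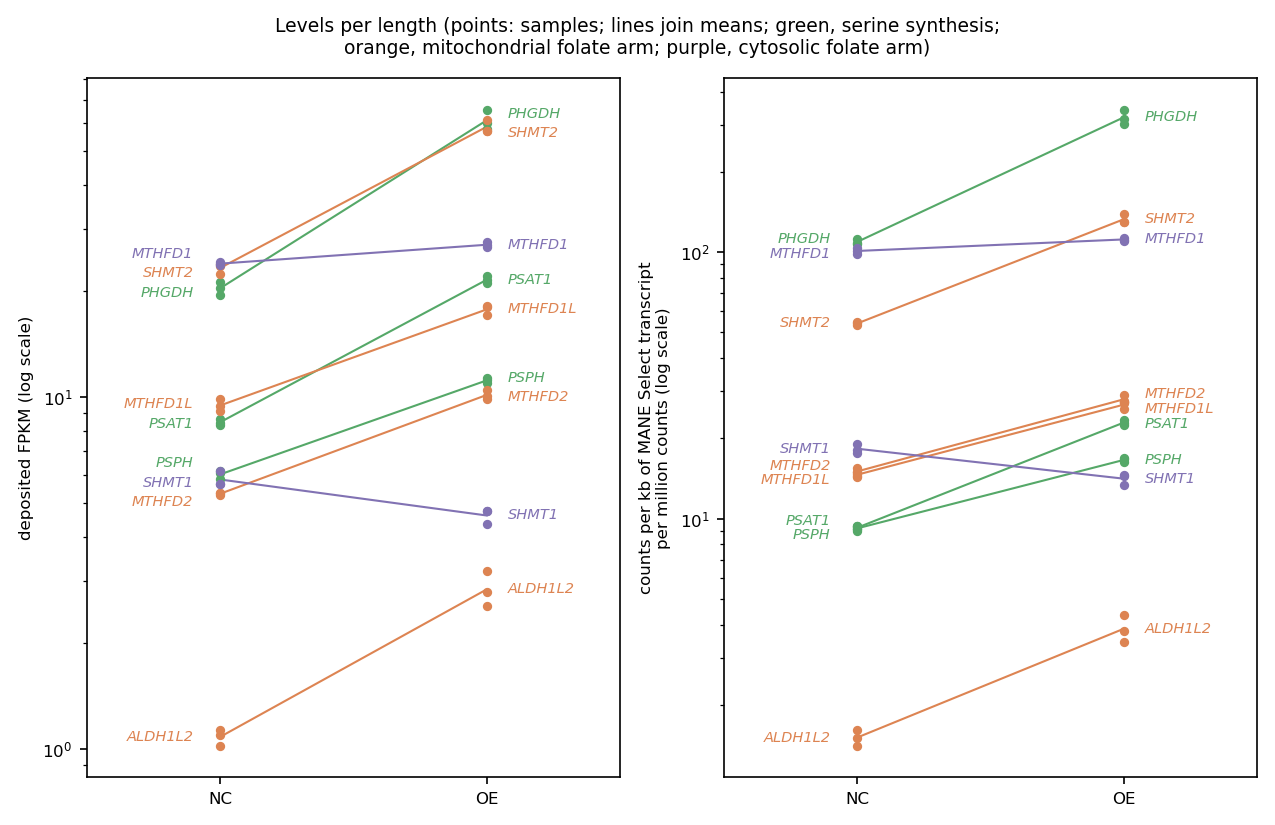
Level of each enzyme gene in NC and OE on log axes, as deposited FPKM (left) and as CPM per kilobase of the MANE Select transcript (right), with points for samples and lines between means. PHGDH and SHMT2 lead in OE on both scales, the line of SHMT1 alone slopes down, and PHGDH has rank 3 in NC on the left and rank 1 on the right.

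Summed over the 9 genes, the FPKM was 104 ± 2.29 (SD, n = 3) in NC and 215 ± 6.52 in OE. The 3 serine synthesis genes went from 34.9 ± 1.03 to 93.9 ± 3.92, the 4 mitochondrial genes from 39.1 ± 1.12 to 89.4 ± 2.59, and the 2 cytosolic genes from 29.8 ± 0.156 to 31.7 ± 0.559. These FPKM sums, like the order of the genes, depend on the length used. As a part of each library the 9 genes took 848 to 856 CPM without TMM in NC and 1567 to 1655 in OE. By this measure the serine synthesis genes took 239 to 247 in NC and 649 to 721 in OE. The mitochondrial genes took 243 to 245 and 519 to 540, and the cytosolic genes 359 to 373 and 384 to 394.

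The ratio of a mitochondrial enzyme to its paralog was formed within each sample from the deposited FPKM. For SHMT2 over SHMT1 it was 3.87, 3.96 and 4.17 in the NC samples and 13.2, 13 and 12.1 in the OE samples, so all OE samples lay above all NC samples. The log2 ratio was 2.00 ± 0.06 in NC and 3.67 ± 0.07 in OE (SD, n = 3), and the difference of 1.67 gave an exact two-sided permutation p of 0.1. This is the smallest p that 3 samples against 3 allow, and it was 0.1 also after adjustment over the 3 pairs. MTHFD1L over MTHFD1 was 0.416, 0.381 and 0.388 in NC and 0.633, 0.653 and 0.678 in OE, and the log2 ratio differed by 0.73 (exact permutation p = 0.1). MTHFD2 over MTHFD2L, a mitochondrial isozyme with the same activities, was 6.10, 6.82 and 6.60 in NC and 11.1, 14.2 and 12.8 in OE, and the log2 ratio differed by 0.96 (exact permutation p = 0.1). The log2 fold change of MTHFD2L itself was −0.04 (adjusted p = 0.78). With MANE Select lengths the ratio of SHMT2 to SHMT1 was 2.95 in NC and 9.41 in OE, that of MTHFD1L to MTHFD1 0.145 and 0.240, and that of MTHFD2 to MTHFD2L 4.05 and 7.86. All 3 were lower than in FPKM in both groups, so the level of a ratio depends on the length used.

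**Figure D4:**
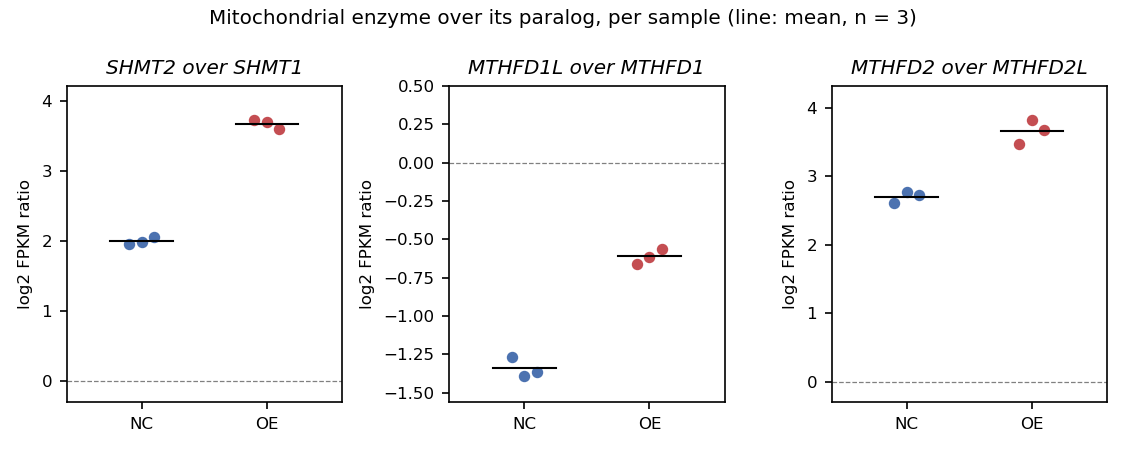
Log2 ratio of the deposited FPKM of a mitochondrial enzyme to its paralog in each NC and OE sample, with a line at the mean of 3 samples and a dashed line at equal FPKM. In all 3 pairs the OE samples lie above the NC samples, by 1.67 for SHMT2 over SHMT1, 0.73 for MTHFD1L over MTHFD1 and 0.96 for MTHFD2 over MTHFD2L.

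Along the serine chain the balance of the transcripts also moved. PHGDH over PSPH in FPKM was 3.50, 3.33 and 3.32 in NC and 5.32, 5.99 and 5.18 in OE, and PSAT1 over PSPH was 1.38, 1.44 and 1.40 in NC and 1.95, 1.96 and 1.89 in OE. Transcripts of PHGDH and PSAT1 were thus higher relative to those of PSPH in each OE sample than in any NC sample. Only RNA was measured for these enzymes, not protein or activity. MTHFD2 over MTHFD1L, consecutive enzymes of the mitochondrial arm, was 0.532 to 0.583 in NC and 0.558 to 0.578 in OE, and these ranges overlapped. These ratios were not tested.

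The promoter sequences of 6 members were at hand in RefSeq on GRCh38.p14 (PHGDH, PSAT1, SHMT1, MTHFD1, MTHFD2 and MTHFD1L, the last with 4 starts), and the 250 bases before each RefSeq start were searched on both strands. The windows of PHGDH, MTHFD1, MTHFD2 and MTHFD1L lie inside the span that GENCODE gives the gene, since that span begins at an earlier start, and 197 of the 250 bases of the PHGDH window are annotated as UTR. Of the SHMT1 window 13 bases are UTR, and of the PSAT1 window 0. The searched letters were CCAAT, the box bound by NF-Y, GGGCGG, the GC box bound by Sp1, CACGTG, the E-box bound by MYC and related factors, and TGATGNAA, the core of the composite C/EBP-ATF element that ATF4 binds with a partner. CCAAT was found in a window of all 6 genes, the one that fell included, where 32% of the 35116 windows in the table hold it. GGGCGG was found for PSAT1, SHMT1 and MTHFD1L (42.6% of all windows), CACGTG for MTHFD1 and MTHFD1L (6.34%), and TGATGNAA for MTHFD1L (3.14%), where it overlaps none of the other 3 motifs. The shares are per window, MTHFD1L had 4 windows, and its TGATGNAA is 1 site that falls in 2 of them. PSAT1 is shown as a gene that rose and SHMT1 as the gene that fell, with CCAAT or its reverse complement in capitals, and PHGDH and MTHFD1L are shown by 30 bases around a match, CCAAT in the first and TGATGNAA in the second.
PSAT1, chr9:78296875-78297124, plus strand: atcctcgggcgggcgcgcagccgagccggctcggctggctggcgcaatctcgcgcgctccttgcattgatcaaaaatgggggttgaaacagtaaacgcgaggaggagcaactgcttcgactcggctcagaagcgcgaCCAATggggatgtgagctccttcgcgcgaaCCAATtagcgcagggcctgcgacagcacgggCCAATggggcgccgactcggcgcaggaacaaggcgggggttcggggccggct
SHMT1, chr17:18363551-18363800, minus strand: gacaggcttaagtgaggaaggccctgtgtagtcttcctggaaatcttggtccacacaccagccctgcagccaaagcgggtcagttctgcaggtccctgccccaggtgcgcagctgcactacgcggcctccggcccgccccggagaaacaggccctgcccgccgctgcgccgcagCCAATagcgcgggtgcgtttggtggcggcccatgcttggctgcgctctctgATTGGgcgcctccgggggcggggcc
PHGDH, chr1:119711852-119711881, plus strand: agtatttccgtCCAATcaaaaggagactgt
MTHFD1L, chr6:150866346-150866375, plus strand: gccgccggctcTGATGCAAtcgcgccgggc
The PSAT1 window holds 3 CCAAT boxes and the SHMT1 window 2. A match describes the letters in the window, and no binding was measured.

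Other genes of the pathway did not share one direction. Of 62 genes in 5 lists, 54 were tested. By the same threshold 19 were higher, 13 were lower and 22 did not pass, with a median log2 fold change of −0.04 beside 0.91 for the 9 enzymes. Both shares can be read against the 24.9% and 23.7% of all tested genes. The 19 higher genes include all 7 transcription regulators, which are not enzymes of the pathway. The counts of each metabolic list are given below, to be read against the same shares. In the folate cycle and folate transport, 4 of 15 tested genes were higher and 3 lower. FOLR1, a folate receptor, was called lower, from 25.9 ± 1.87 to 9.75 ± 0.491 CPM (SD, n = 3; log2 fold change −1.41, adjusted p = 1.8e-11). SLC25A32, the mitochondrial folate carrier, rose by 0.61 and MTRR, which reactivates methionine synthase, by 0.35. ALDH1L1, the cytosolic relative of ALDH1L2, had at most 1 count in any sample and was not tested.

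In the list of glycine cleavage and choline-derived one-carbon units, 1 of 8 tested genes was higher and 2 were lower (24.9% and 23.7% of all tested genes). GLDC, which decarboxylates glycine in the cleavage system, had a CPM of 16.3, 15.6 and 13.9 in NC and of 9.69, 10.3 and 9.63 in OE (log2 fold change −0.62, adjusted p = 6.1e-06). ALDH7A1 fell by 0.27 and GCAT, the 1 higher gene, had 0.36 (adjusted p = 0.039) with samples that overlapped. For GCAT the call was lost with DESeq2 (adjusted p = 0.073), with limma on log2(FPKM + 1) (0.24), and without OE replicate 1 (0.33), NC replicate 1 (0.16) or NC replicate 2 (0.094). The values of SARDH and DLD, −0.52 and −0.05, did not pass the test. AMT, the aminomethyltransferase of the cleavage system, had 1 count in all and was not tested.

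Of 18 genes of serine transport and use, 5 were higher and 6 lower, where 24.9% of all tested genes were higher and 23.7% lower. SARS1, the cytosolic seryl-tRNA synthetase, went from 220.5 ± 6.44 to 508 ± 16.5 CPM (SD, n = 3; log2 fold change 1.20, adjusted p = 6.1e-14). SDSL, a serine dehydratase-like enzyme, rose by 1.13 from a CPM of 3.20, and both genes were called higher. Without NC replicate 2 SDSL had 0.98, below the fold change threshold. SPTLC2, a subunit of the serine palmitoyltransferase of sphingolipid synthesis, fell by 0.65, SERINC5 by 0.70 and PTDSS1, a phosphatidylserine synthase, by 0.27. SFXN1, a mitochondrial serine transporter, had 0.11 (adjusted p = 0.25). SFXN2 and SFXN3 of the same list were lower, with −0.52 (adjusted p = 0.0016) and −0.20 (adjusted p = 0.0049). For SFXN2 the call was lost with limma on log2(FPKM + 1) (adjusted p = 0.063) and on log2(FPKM + 0.1) (0.061). In de novo purine synthesis, which uses formyl-tetrahydrofolate, 2 of 6 genes were higher and 2 lower. PPAT, the first enzyme, rose by 0.50 and GART by 0.19, PAICS fell by 0.18, ADSL had −0.16 (adjusted p = 0.019) and ATIC 0.07 (adjusted p = 0.30). The call of ADSL was lost under the replicate block (adjusted p = 0.057), without NC replicate 3 (0.17) or OE replicate 1 (0.071), and with limma on log2(FPKM + 1) (0.18).

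All 7 transcription regulators of the list were higher, where 24.9% of all tested genes were higher. KDM4C, with 0.24, lost the call without NC replicate 3 (adjusted p = 0.12) or OE replicate 2 (0.070). It was also lost with limma on log2(FPKM + 1) (adjusted p = 0.12) and on log2(FPKM + 0.1) (0.11). DDIT3 rose by 1.08 and CEBPG by 1.05, both above the fold change threshold, and CEBPB by 0.93. NFE2L2 had 0.31 and MYC 0.31, and both passed the test. ATF4 had a CPM of 569, 532 and 601 in NC and of 708, 713 and 639.8 in OE, and its log2 fold change was 0.28 (adjusted p = 0.00042), beside 0.87 to 1.57 for the 7 enzymes of serine synthesis and the mitochondrial arm. The lists were written with earlier results of these samples known, and their counts are not independent evidence of a direction.

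**Figure D5:**
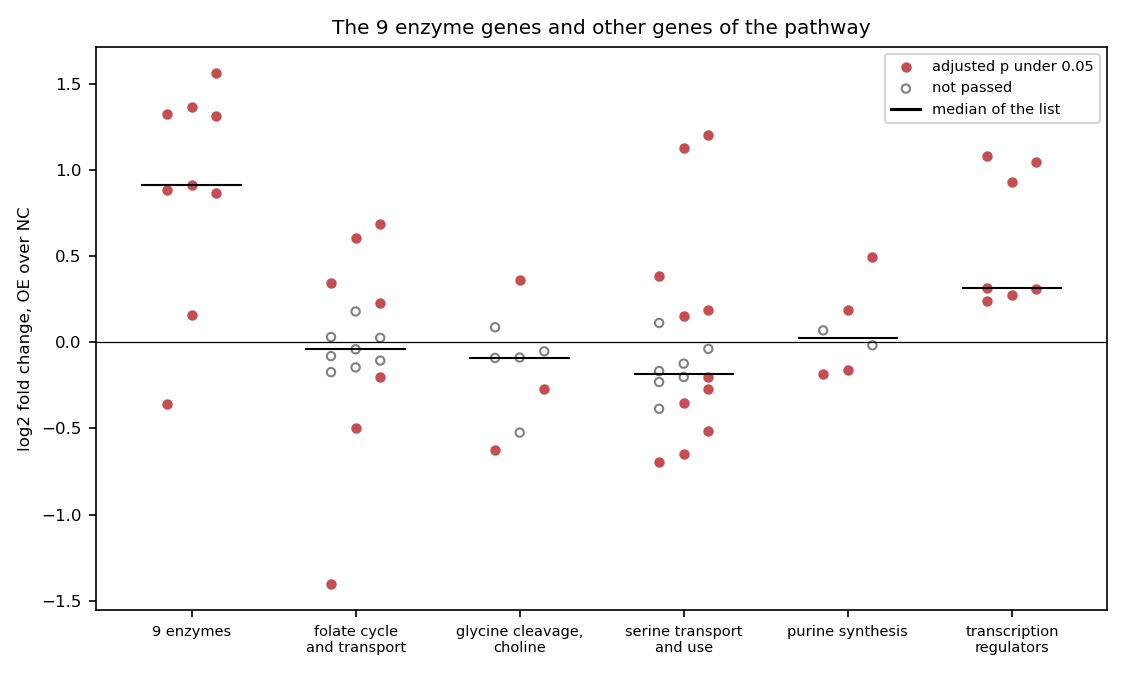
Log2 fold change of OE over NC for the 9 enzyme genes and for the tested genes of 5 further lists, with filled points for an adjusted p under 0.05 and a line at the median of each list. The median is 0.91 for the 9 enzymes, between −0.18 and 0.03 for the 4 metabolic lists and 0.31 for the 7 regulators.

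Over the 6 samples, the genes whose log2 CPM followed that of PHGDH most closely were sought among 11770 other genes whose mean count was 100 or more. They were SQSTM1, an autophagy receptor, SHMT2, YARS1, RP11-603J24.9 and SARS1, with a Pearson's r of 0.9998, 0.9997, 0.9996, 0.9996 and 0.9995. The r mostly reflects the difference between the groups, since the 6 points fall into 2 groups of 3. MTHFD1L ranked 61, PSAT1 102, PSPH 172, MTHFD2 251 and ALDH1L2 895, with r from 0.975 to 0.997. MTHFD1 ranked 1368 with an r of 0.957, although its log2 fold change was only 0.16, and SHMT1 had −0.960.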

How the data were processed

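RNA of 6 samples of HK-2 cells, 3 NC and 3 OE, was sequenced by the authors from stranded mRNA libraries, read from both ends. The authors trimmed the reads, aligned them with HISAT2 (GRCh38) and counted the reads with a unique position for each gene, and the deposited counts carry no normalization. From these the authors computed the deposited FPKM values, given to 2 decimals. Neither the annotation nor the program that counted is given in the sources used here.

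The deposited counts were filtered by filterByExpr and scaled by TMM, and the groups were compared by the quasi-likelihood test of edgeR 4.0.16 (R 4.3.3) over all genes, with Benjamini-Hochberg adjustment. Standard errors and 95% intervals were derived from the F statistic. The script was also run on counts simulated from the gene means of these data and the spread that edgeR estimated for them. Such a run checks the code, not whether the model suits these data. Gene coordinates and lengths were taken from GENCODE release 44, in which 99.7% of the gene identifiers were found without version. Ratios of FPKM were compared by an exact two-sided permutation test over samples. Overlap with other genes was examined for the 9 members and *PPM1K* only.

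No 2 replicates held the same library, since the counts of each pair within a group had a mean chi-square per gene of 5.12 to 11.7, where sampling noise gives about 1. The members and lists were chosen with earlier results of these data known. Besides the members and *PPM1K*, the genes named were up to 5 tested genes of each list with the smallest adjusted p, the 5 genes most like PHGDH, and pseudogenes of the members. Of the folate list, 2 of the genes so chosen are not reported here. MTHFD2L, ALDH1L1, AMT, SFXN1, SFXN2, SFXN3, CDH1, ATF4, KDM4C and the genes that overlap members were named after their values were seen. Alternatives were DESeq2 1.42.0, limma 3.58.1 on log2(FPKM + 1) and log2(FPKM + 0.1), other normalizations and filters, glmTreat, a block for the replicate number and each sample left out. The MANE Select length was added after the data had been seen. Figures were drawn with matplotlib 3.10.9.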

Additional observations from a re-analysis of the deposited data

How the results depend on the processing

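The number of members higher at an adjusted p under 0.05 was 8 under every alternative run on this threshold except the replicate block, and the number lower was 1 under all of them. The number called higher was 4, also against a fold change of 2 with glmTreat, and 3 with limma on log2(FPKM + 1), where ALDH1L2, with an FPKM near 1 in NC, had a log2 difference of 0.88. The number of all genes called moved more. It was 274 higher and 601 lower in the report's test, 56 and 67 with limma on log2(FPKM + 1), 56 and 69 with the same after a filter for an FPKM of 1 or more in 3 samples, 173 and 340 with limma on log2(FPKM + 0.1), and 68 and 118 with glmTreat. The smaller counts on log2(FPKM + 1) go with a scale that compresses low values, and glmTreat tests a stricter hypothesis. The median log2 fold change of all genes was −0.13 with DESeq2 and with no filter on low counts, which test more genes, and −0.01 with the size factors of DESeq2 in edgeR. Of the genes of the other lists, regulators included, 54 were tested in the report's test, with 19 higher and 13 lower. Over the alternatives, which tested from 42 to 60 of these genes, 15 to 19 were higher and 11 to 15 lower. Without NC replicate 2, 15 were higher. Low FPKM values are given to 2 decimals only, which limits ALDH1L2 and MTHFD2L.

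The NC and OE samples share replicate numbers, to which the labels give no meaning. Deviations from the group mean, compared between samples of one number, had correlations of −0.0147, −0.133 and −0.130 over the tested genes. No NC sample correlated best with its own number, so no pairing by number was seen in these deviations. Whether the numbers mark shared cultures or batches cannot be told from 3 samples per group. With the replicate block 7 members were higher, since MTHFD1 had the same log2 fold change of 0.16 with an adjusted p of 0.052. Among the other named genes ADSL also lost its call (adjusted p = 0.057). The other 8 members kept their side of the threshold, among them PHGDH with 1.57 and SHMT1 with −0.36. The block called 274 genes higher and 603 lower, and the paralog ratios had an exact p of 0.25 by sign flips, the smallest that 3 pairs allow.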
